A study of Mus musculus with 17 samples.

Results

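Selenoproteins carry selenocysteine, an amino acid that resembles cysteine with selenium in place of sulfur, usually at the catalytic site of a redox enzyme. The transcripts described here are those of 8 selenoprotein genes other than Gpx4 (Gpx1, Gpx3, Selenop, Selenow, Selenok, Msrb1, Txnrd2 and Sephs2) and of Secisbp2, whose product helps to build selenoproteins. They were taken by gene name from the tables of 3 cell populations sorted from lung tumors of mice, and all 9 were found in each table, out of 17555 gene names in the tables together.

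Selenocysteine is encoded by TGA, which elsewhere ends translation. A hairpin in the untranslated end of the transcript, the SECIS element, is bound by SBP2 (Secisbp2), which recruits a dedicated elongation factor and the selenocysteine tRNA. Sephs2 makes the selenophosphate from which selenocysteine is formed on that tRNA, and is itself a selenoprotein. Selenop is secreted, chiefly by the liver, and delivers selenium to other tissues through receptors of the LDL receptor family. Glutathione peroxidases of this group reduce hydrogen peroxide, Gpx1 in the cytosol and mitochondria and Gpx3 outside the cell, whereas Gpx4 reduces lipid hydroperoxides in membranes and is the enzyme that holds back ferroptosis. Transcripts of some selenoproteins, Gpx1 and Selenow among them, are known to be degraded when selenium is scarce, because the TGA is then read as a premature stop.

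The genes were compared between KL mice, which carried Lkb1fl/fl among their alleles, and KLG4 mice, which carried the alleles of KL and Gpx4m/m in addition. Mice on a C57BL/6 background were 8 to 10 weeks old when they received adenovirus with Cre (Ad-Cre) by the nose. Both genotypes were later given tamoxifen, and cells were taken from the lungs 10 weeks after infection. Cre deletes Lkb1 (gene symbol Stk11) in both genotypes. In KLG4 it also opens a CAG-driven, tamoxifen-dependent Dre recombinase at the Gpx4 locus, which is designed to cut out Gpx4 exons 5 to 7. The promoter that drives Cre in the virus was not given in the sources used here. The populations are tumor cells, TRMs and MDMs as the labels name them, and each was represented by 2 KL and 2 KLG4 libraries, which makes 12 libraries in 6 groups. Tumor cells were sorted as CD45-CD31-EpCAM+, a gate meant to remove leukocytes and endothelial cells and to keep epithelial cells. The gates of the TRM and MDM sorts were not given in the sources used here. The tumor cell libraries are described as coming from separate mice, although each expressed genes of both sexes, as given below, and nothing says this of TRMs and MDMs. The p-values in all populations measure the spread between these libraries, which may be technical.

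Recovered depths ranged from 9.14 to 36.6 M counted reads, in which the mates of a pair mostly count separately. Markers fitted the population names in part (see the plot of marker lists by library). The epithelial list (Epcam, keratins, claudins and others) summed to 9081 and 6773 RPKM in KL and to 3896 and 3912 RPKM in KLG4 tumor cells. TRMs held all 10 alveolar macrophage genes, at a sum of 8516 to 12907 RPKM. MDMs held all 10 neutrophil genes at a sum of 10734 to 23729 RPKM, against 1268 to 3006 RPKM for the macrophage list, so that their label rests on a mixed marker picture. In the KLG4 tumor cell libraries the leukocyte list was called higher in 10 of 10 genes (278 and 278 against 39.7 and 48.8 RPKM summed), the macrophage list in 9 of 9 genes tested (916 and 948 against 229.9 and 290.2 RPKM) and the fibroblast list in 10 of 10 genes (1496 and 1392 against 150.2 and 153 RPKM). None of these markers was at 0 in all tumor cell libraries. In MDMs, KL replicate 2 stood apart, with a fibroblast sum of 78.9 RPKM against 12.4 RPKM in KL replicate 1 and 5.76 and 6.17 RPKM in KLG4. TRM libraries of KL expressed Y-linked Eif2s3y and those of KLG4 expressed Xist, so sex and genotype cannot be told apart in TRMs. All 4 tumor cell libraries expressed both (Xist at 4.17 to 6.18 RPKM, Eif2s3y at 7.27 to 9.26 RPKM), and in MDMs Xist was at 0.839 RPKM in KL replicate 2 and at 19.4 to 21.8 RPKM in the other libraries.

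**Figure D1:**
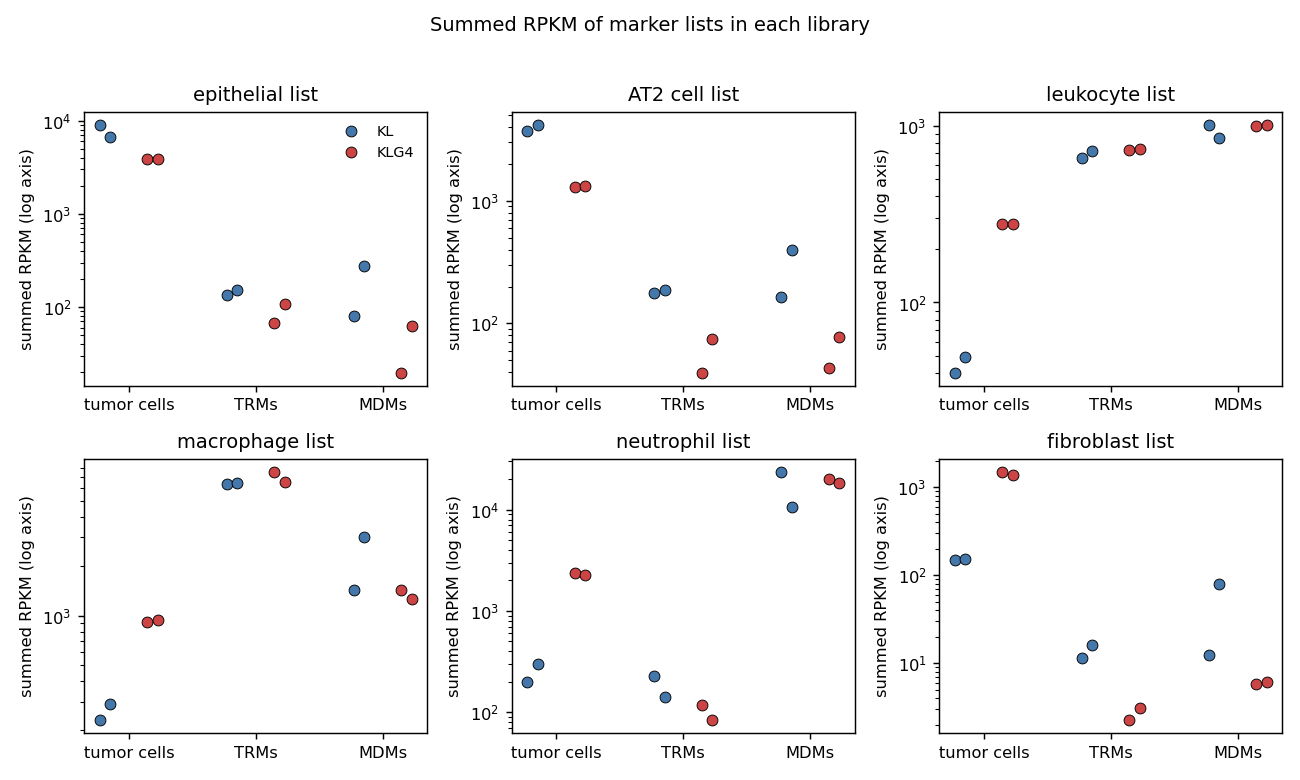
Summed RPKM (log axis) of 6 marker lists in each of the 12 libraries, KL in blue and KLG4 in red, with each point a library. Leukocyte, macrophage, neutrophil and fibroblast sums lie higher in both KLG4 tumor cell libraries than in both KL ones, epithelial and AT2 (type 2 alveolar cell) sums lie lower, and the neutrophil sum reaches 23729 RPKM in MDMs.

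The selenocysteine codon of each gene was read from the GENCODE M21 annotation of GRCm38, because it is what makes the product a selenoprotein and because its place relative to the exon junctions bears on decay. Windows of the coding strand are given 5′ to 3′, with up to 12 bases on each side, and capitals mark the in-frame TGA that is read as selenocysteine. The TGA of Selenok and Txnrd2 lies so close to the end that their windows run through the stop codon.
Gpx1: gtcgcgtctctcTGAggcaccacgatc
Gpx3: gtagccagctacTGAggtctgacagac
Selenop, the first codon: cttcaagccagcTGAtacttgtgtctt
Selenop, the last codon: aggaagtgaaaaTGAcattcaaactaa
Selenow: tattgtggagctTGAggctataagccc
Selenok: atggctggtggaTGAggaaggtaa
Msrb1: caatcaagattcTGAatatttagcagc
Txnrd2: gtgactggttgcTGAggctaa
Sephs2: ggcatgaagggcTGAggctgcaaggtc

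Of the 7 genes with a lone selenocysteine codon, 6 had gg directly after the TGA, and Msrb1 was the exception. Selenop had 10 such codons, 9 of them in its last exon, and 2 of the 10 were followed by g. Secisbp2 had no in-frame TGA in 858 codons. In all, 24 genes of the annotation carried a selenocysteine feature, 8 of the 9 genes described here among them.

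The codons lie at very different places. Positions of genes are those of the deposited tables, and the annotation extends Selenok to 29975662. Gpx1 (chr9:108338903-108340343, plus strand) has its TGA at codon 47 of 201, in exon 1 of 2 (chr9:108339451-108339453), 105 bases before the last exon junction. Gpx3 (chr11:54902453-54910377, plus strand) has it at codon 73 of 226, in exon 2 of 5 (chr11:54907256-54907258). Selenow (chr7:15917208-15922402, minus strand) has it at codon 13 of 88, in exon 2 of 6 (chr7:15920464-15920466). The Msrb1 codon (gene at chr17:24736642-24742778, plus strand) is codon 95 of 116, in exon 3 of 4 (chr17:24740158-24740160). Selenok (chr14:29968308-29975074, plus strand) has it at codon 92 of 94 (chr14:29973440-29973442), and Txnrd2 (chr16:18426384-18479073, plus strand) at codon 526 of 527 (chr16:18477772-18477774), the residue before the last. In Selenop (chr15:3268547-3280508, plus strand) the codons run from codon 59, in exon 2 of 5 (chr15:3274848-3274850), to codon 377 of 380 (chr15:3279696-3279698). Sephs2 (chr7:127271879-127274055, minus strand) is a gene of 1 exon with the TGA at codon 63 of 452 (chr7:127273731-127273733), so no exon junction follows it. Secisbp2 lies at chr13:51651697-51684044 on the plus strand. All 9 are protein-coding.

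**Figure D2:**
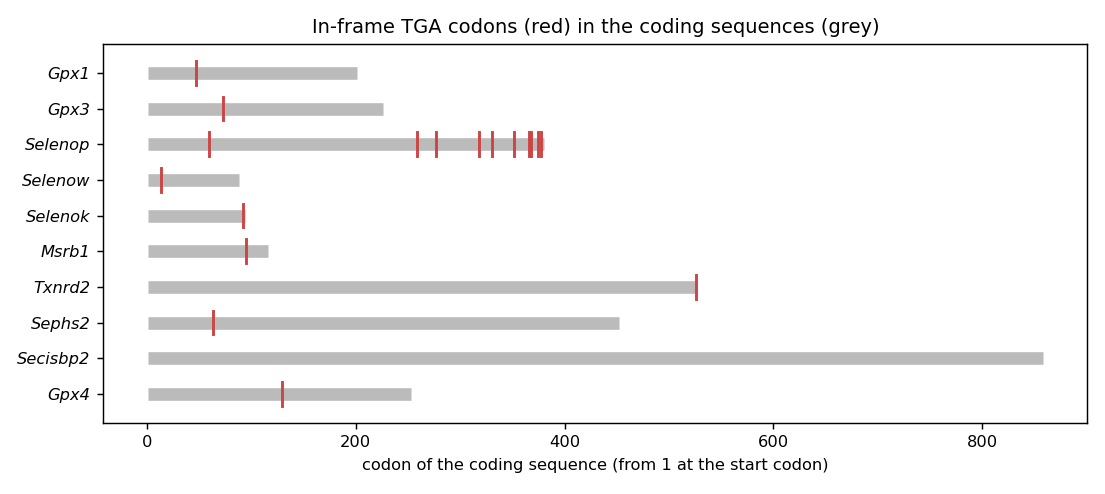
Coding sequences of the 9 genes and Gpx4 drawn to scale in codons (grey), with each in-frame TGA as a red line. Gpx1, Gpx3, Selenow and Sephs2 carry the codon early, Selenok and Txnrd2 at the end, Selenop 10 times, and Secisbp2 carries none.

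Levels across the populations are described without a test, because the 3 tables were deposited separately. RPKM normalises the reads of a gene for its length and for the counted reads of the library, so that levels of different genes can be set side by side. Counted reads include those of mitochondrially encoded genes and their nuclear copies. These held 31.5% and 22.3% in KL TRMs and 0.923% to 14.8% in the libraries of the other groups. Their part in the order of groups was not tested. Gpx1 and Selenok were the most abundant of the 9 in every population, and Txnrd2, the mitochondrial thioredoxin reductase, the least, at 0.402 to 2.06 RPKM over the 12 libraries.

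Gpx1 was highest in TRMs, with group means of 492 and 448 RPKM in KLG4 and KL, whose libraries overlapped. MDMs followed at 273 RPKM in KL and 242 RPKM in KLG4, then KLG4 tumor cells at 204 RPKM and KL tumor cells at 149 RPKM. Neighbouring groups in that order overlapped within TRMs and within MDMs and were otherwise separate. Selenok, a small membrane protein of the endoplasmic reticulum, had the reverse order of TRMs and MDMs: MDMs were at 353 to 425 RPKM and TRMs at 200.1 to 210.1 RPKM.

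Msrb1, which reduces the R form of methionine sulfoxide and is known for work in macrophages, was at 32.7 to 41.4 RPKM in MDMs, 26.7 to 32.1 RPKM in TRMs and 3.89 to 11.2 RPKM in tumor cells. Its group means spanned 10.4-fold, from KL tumor cells to KLG4 MDMs. Selenow, a small protein with a thioredoxin-like fold, ran the other way, with 34.5 to 63.0 RPKM in tumor cells and 6.88 to 26.9 RPKM in TRMs and MDMs. Sephs2 was at 20.8 to 26.8 RPKM in MDMs, which overlapped KLG4 tumor cells (19.9 and 21.9 RPKM), at 12.2 to 12.4 RPKM in KL tumor cells and lowest in TRMs (6.23 to 9.56 RPKM).

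Gpx3 had the widest range of the 9, 21.6-fold between group means. KLG4 tumor cells, at a mean of 45.7 RPKM, stood alone, and the other 5 groups had means from 2.12 to 8.10 RPKM. Selenop was at about the same level in KLG4 tumor cells (79.9 RPKM) and KLG4 TRMs (79.3 RPKM), whose libraries overlapped, and was lowest in KL tumor cells (20.9 RPKM). Secisbp2 varied least, 1.61-fold between its highest and lowest group mean, and only the highest group, KLG4 TRMs, was separate from the next.

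**Figure D3:**
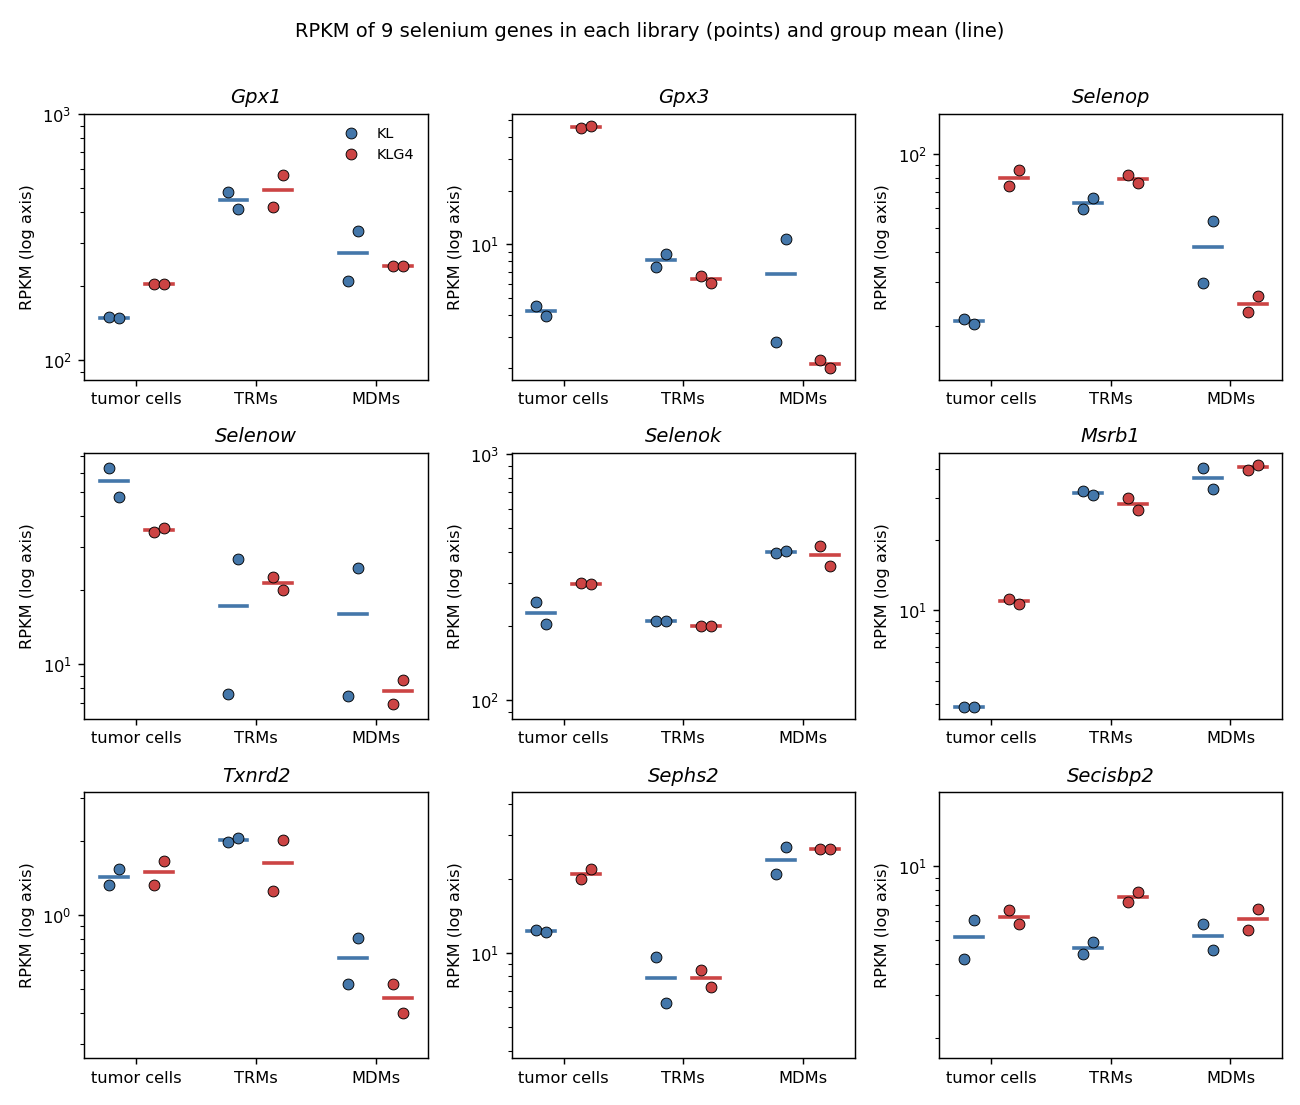
RPKM (log axis) of the 9 genes in each library (points) with group means (lines), KL in blue and KLG4 in red, for tumor cells, TRMs and MDMs. Gpx3 in the KLG4 tumor cells lies above every other library, Msrb1 is higher and Selenow lower in TRMs and MDMs than in tumor cells, and Selenow differs between the KL replicates of TRMs and of MDMs.

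The first comparison asked how these genes differ between tumor cells with the modified and with the unmodified Gpx4 locus. Gpx4 itself was at 94.95 and 76.8 RPKM in KL and at 56.4 and 61.9 RPKM in KLG4, counted over the whole gene, exons outside the deletion included. Of the 9 genes, 5 were higher in KLG4 (Gpx3, Selenop, Msrb1, Sephs2 and Gpx1) and 1 was lower (Selenow) at an adjusted p under 0.05 in limma. The background is high in this population: 40.3% of the 13770 genes tested passed, 20.6% higher and 19.6% lower in KLG4 (2843 and 2700 genes). These became 2585 and 4130 genes after quantile scaling and 3058 and 1989 genes with TMM scaling. At an unadjusted p under 0.05, 7 of the 9 genes passed, where 50.4% of all genes did. The median log2 fold change was 0.45 over the 9 genes and -0.09 over all genes tested.

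Among the 9 genes, the secreted selenoproteins differed most. Gpx3, the extracellular glutathione peroxidase, was at 4.47 and 3.96 RPKM in the KL libraries and at 45.2 and 46.1 RPKM in the KLG4 libraries. The groups were far apart: 297 and 217 reads stood against 1445 and 1332 reads although the KLG4 libraries were the shallower ones. Means of 4.22 ± 0.365 and 45.7 ± 0.695 RPKM (SD, n = 2) gave a 10.8-fold higher level, or 3.41 ± 0.13 (SE) on the log2(RPKM + 0.1) scale (adjusted p = 0.000134, limma).

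Selenop, the selenium carrier, was at 21.4 and 20.3 RPKM in KL and at 73.8 and 86.1 RPKM in KLG4. Both KLG4 libraries lay above both KL ones, by 3.83-fold in the mean. The log2 fold change was 1.93 ± 0.13 (SE; adjusted p = 0.000464, limma).

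Msrb1 was at 3.89 RPKM in both KL libraries and at 11.2 and 10.7 RPKM in KLG4, from 148 to 249 reads a library. Its log2 fold change was 1.47 ± 0.14 (SE; adjusted p = 0.0012, limma). The KLG4 level remained below the lowest TRM or MDM library, which held 26.7 RPKM.

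Gpx1, the abundant intracellular peroxidase, was at 150.3 and 148 RPKM in KL and at 204 RPKM in both KLG4 libraries. Groups did not overlap, and the difference of 1.37-fold was small beside those above (log2 fold change 0.45 ± 0.10 SE, adjusted p = 0.0212, limma). Sephs2, the selenophosphate synthetase, rose from 12.4 and 12.2 RPKM to 19.9 and 21.9 RPKM. That is 1.70-fold, or 0.76 ± 0.13 (SE) in log2 (adjusted p = 0.00742, limma).

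Selenow was the gene that fell. It was at 63.0 and 48.0 RPKM in the KL libraries, and the KLG4 libraries held 34.5 and 35.7 RPKM. The log2 fold change was -0.65 ± 0.16 (SE; adjusted p = 0.0266, limma), and the KL libraries differed from each other by about as much as the lower of them from KLG4. With TMM scaling its adjusted p was 0.0762, and without the mean-variance trend it was 0.0529 and that of Gpx1 0.0617.

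The remaining 3 genes did not pass. Selenok, which takes part in degradation at the endoplasmic reticulum and in protein palmitoylation, was at 250.2 and 204 RPKM in KL and at 300.0 and 296 RPKM in KLG4. The groups were separate and its log2 fold change was 0.40 (95% interval 0.05 to 0.75, adjusted p = 0.0698, limma). After quantile scaling, or with reads scaled to those outside mitochondrial genes, it passed (adjusted p = 0.00893 and 0.0442). Txnrd2 was at 1.33 and 1.53 RPKM in KL and at 1.33 and 1.66 RPKM in KLG4, with an interval of -0.52 to 0.62 in log2. Secisbp2 was at 4.22 and 6.08 RPKM against 6.66 and 5.81 RPKM, with an interval of -0.27 to 0.85. Its log2 fold change was 0.03 without KL replicate 1 and 0.55 (adjusted p = 0.035, limma) without KL replicate 2. Groups overlapped for both.

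Counted without a test, 6 of the 9 genes had both KLG4 libraries above both KL libraries and 1 had both below, where 32.5% and 42.2% of all genes tested did so (74.7% in either direction). The 2 KLG4 libraries resembled each other closely: a chi-square of read counts came to 3.28 per gene, against 28.9 to 132 in the other pairs of replicates. Without KLG4 replicate 1 or without KLG4 replicate 2, 3 genes passed, and in both cases they were Gpx3, Selenop and Msrb1. Gpx1 had an adjusted p of 0.252 in either case. Without KL replicate 1, Selenok had an adjusted p of 0.00088, and without KL replicate 2 one of 0.00825.

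The differences in tumor cells went with the marker lists given above. Leukocyte and fibroblast sums were higher and sums of the general epithelial list lower in the KLG4 libraries. Genes of club cells, an airway epithelial type, were called higher in 8 of 8 (3638 and 4425 RPKM summed in KL, 7712 and 7851 RPKM in KLG4). B and plasma cell genes were called higher in 8 of 9 tested (45.1 and 71.9 against 1960.5 and 1993 RPKM summed). Mitochondrial genes and their copies held 7.39% and 8.27% of reads in KL and 14.8% and 14.7% in KLG4. The part of these in the results for the 9 genes was not tested. Fewer cells of a type and less RNA per cell cannot be told apart in these bulk libraries. Gpx3 in KLG4 tumor cells was above each TRM and MDM library, where the highest value was 10.7 RPKM, whereas Selenop overlapped the KLG4 TRM libraries and Msrb1 lay below every TRM and MDM library. Fibroblast, T cell, B and plasma cell and neutrophil genes were among those higher. Such cells should fail the CD45-CD31-EpCAM+ gate, and none was sorted on its own in the libraries used here. Which cells held the Gpx3 reads was not tested.

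**Figure D4:**
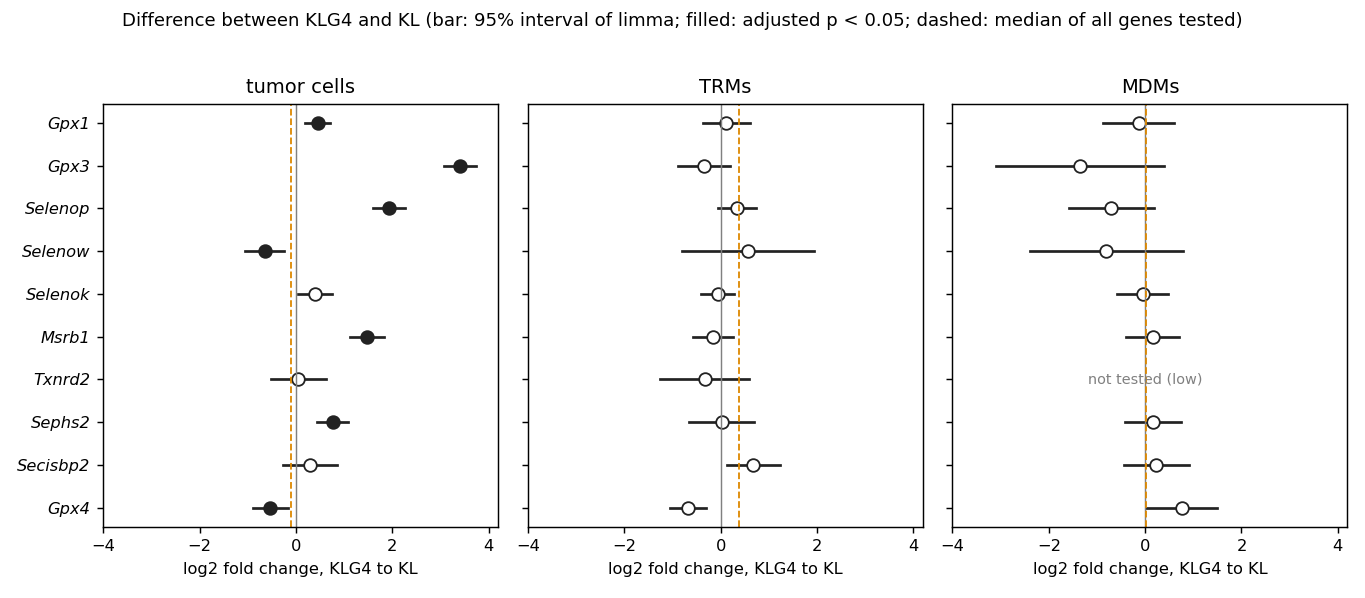
Log2 fold change of KLG4 to KL for the 9 genes and Gpx4 (points) with the 95% interval of limma (bars) in each population; filled points have an adjusted p under 0.05 and the dashed line is the median of all genes tested. In tumor cells 6 of the 9 genes are filled, led by Gpx3 at 3.41, and in TRMs and MDMs none is.

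In TRMs the same comparison was made for macrophages of these lungs, in which Gpx4 was at 89.8 and 88.2 RPKM in KL and at 53.8 and 57.0 RPKM in KLG4 (adjusted p = 0.0697, limma). None of the 9 genes passed in limma, where 1.8% of the 10990 genes tested passed (1.36% higher and 0.437% lower in KLG4). With limma-voom on recovered reads none of the 9 passed either, where 1921 of 10644 genes did. At an unadjusted p under 0.05 1 of the 9 passed (Secisbp2), against 28.3% of all genes. The 150 genes called higher and 48 called lower became 8 and 22 with TMM scaling. Reads of mitochondrially encoded genes, with 9 near-identical nuclear copies included, made up 31.5% and 22.3% of the KL libraries and 2.95% and 5.78% of the KLG4 libraries. The median of all genes was 0.38 in log2 as deposited and 0.00167 after reads were scaled to those outside mitochondrial genes and copies. Differences in TRMs are therefore also given relative to that median.

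Secisbp2 was at 4.41 and 4.94 RPKM in KL TRMs and at 7.18 and 7.91 RPKM in KLG4. Its groups were separate, as they were, with KLG4 above, for 53.7% of all genes tested. The log2 fold change of 0.68 ± 0.22 (SE) came to 0.30 relative to the median (unadjusted p = 0.0228, adjusted p = 0.125, limma). Selenop was at 59.6 and 66.1 RPKM in KL and at 82.4 and 76.3 RPKM in KLG4, a log2 fold change of 0.34 that came to -0.04 relative to the median of all genes.

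Lower in both KLG4 TRM libraries than in both KL ones were 3 of the 9 genes, as were 8.95% of all genes, with none past the test. Separate groups in either direction were found for 5 of the 9 genes and 62.7% of all. Gpx3 was at 7.39 and 8.81 RPKM in KL and 6.65 and 6.05 RPKM in KLG4 (adjusted p = 0.344, limma). Selenok was at 209 and 210.1 RPKM against 200.1 and 201 RPKM, and the interval of its log2 fold change ran from -0.41 to 0.29. Msrb1 was at 32.1 and 30.9 RPKM against 30.1 and 26.7 RPKM. Relative to the median these were -0.72, -0.44 and -0.53 in log2.

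Gpx1 was at 484 and 413 RPKM in KL TRMs and 419 and 565 RPKM in KLG4, so that each group held both a higher and a lower library. Sephs2 was at 9.56 and 6.23 RPKM against 8.51 and 7.27 RPKM, with group means of 7.89 RPKM in both. Txnrd2 was at 1.98 and 2.06 RPKM against 1.25 and 2.01 RPKM. The groups overlapped for all 3, and the sign of Gpx1 and Sephs2 turned with the scaling, as did that of Selenop with TMM scaling.

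Selenow set the KL TRM libraries apart, with 7.61 RPKM in replicate 1 and 26.9 RPKM in replicate 2 (56 and 181 reads), while KLG4 held 22.7 and 20.1 RPKM. Which library is left out decides the value. The log2 fold change was 1.48 without KL replicate 2, -0.33 without KL replicate 1, and 0.57 with both (adjusted p = 0.521, limma).

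MDMs gave 0 calls among 8 genes tested, 0 at an unadjusted p under 0.05 and 0 with limma-voom on recovered reads. No gene of this population passed (0% of 10475 tested, with 706 or 6.74% at an unadjusted p under 0.05). Txnrd2, at 0.402 to 0.810 RPKM and 37 to 60 reads a library, fell below the level filter and was not tested. Counting all 9, none had both KLG4 libraries above both KL libraries and 3 had both below (Gpx3, Selenop and Txnrd2), where 25.4% and 19.1% of all genes tested did, or 44.5% in either direction.

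Gpx3 was at 2.82 and 10.7 RPKM in KL MDMs and at 2.22 and 2.01 RPKM in KLG4. The groups were separate, but KL replicate 2 alone held the high value. Selenop showed the same layout with 29.96 and 53.6 RPKM against 22.7 and 26.4 RPKM. Selenow was at 7.47 and 24.6 RPKM in KL and at 6.88 and 8.67 RPKM in KLG4, and here the groups overlapped.

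With all libraries the log2 fold changes were -1.35 ± 0.66 for Gpx3, -0.71 ± 0.34 for Selenop and -0.81 ± 0.60 for Selenow (SE), with adjusted p-values of 0.679, 0.679 and 0.694 in limma. Without KL replicate 1 they became -2.29, -1.13 and -1.66. Without KL replicate 2 they shrank to -0.40, -0.29 and 0.05. The same library held the high fibroblast, epithelial (275 against 79.8 RPKM in KL replicate 1) and macrophage sums (3006 against 1434 RPKM), the lowest neutrophil sum (10734 against 23729 RPKM) and the low Xist level, whose part in these values was not tested.

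Groups overlapped for the other 5 genes tested in MDMs. Selenok was at 399 and 404 RPKM in KL and at 425 and 353 RPKM in KLG4 (95% interval of the log2 fold change -0.57 to 0.47). Msrb1 was at 40.5 and 32.7 RPKM against 39.7 and 41.4 RPKM (-0.39 to 0.70), and Sephs2 at 20.8 and 26.8 RPKM against 26.4 and 26.4 RPKM (-0.42 to 0.74). Gpx1 (210.3 and 335 against 241 and 242 RPKM) and Secisbp2 (5.83 and 4.56 against 5.51 and 6.69 RPKM) had log2 fold changes of -0.13 and 0.23. These intervals leave room for changes of the size seen for Gpx1 in tumor cells.

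Genes with the most similar pattern were sought for the 3 members that varied most over the 12 libraries, among 8962 genes tested in all 3 tables. The libraries share the 3 populations, so the points are not independent and the correlations are a description. Among the genes nearest to Gpx3 were Pakap and C1ra (Pearson r = 0.93 each). C1ra, a protease of the complement system, was at 2.55 and 2.95 RPKM in KL and 54.1 and 57.9 RPKM in KLG4 tumor cells, and at 1.26 to 9.36 RPKM in TRMs and MDMs. Msrb1 was followed by Hcls1, Bcl2a1b and Gm29094 (r of 0.99 each), of which Bcl2a1b and Gm29094 belong to a family of near-identical copies that share reads. Hcls1, a protein of blood cells, was at 35.9 and 39.5 RPKM in KL tumor cells, 186.5 and 179.6 RPKM in KLG4 tumor cells and 656 to 1061 RPKM in TRMs and MDMs. Selenow was followed by Mrpl34 (0.97), Nenf (0.96) and Deaf1 (0.96).

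Related genes were grouped into lists. Of the 16 other mouse selenoprotein genes listed, 12 were tested in tumor cells, of which 4 rose and 1 fell, with a median log2 fold change of -0.04. Of all genes in tumor cells 40.3% passed, so that 5 of 12 is near the background, and the counts of the other lists in tumor cells stand beside the same 20.6% higher and 19.6% lower. Dio2, the deiodinase that makes active thyroid hormone, was at 0.0564 and 0.137 RPKM in KL and at 3.55 and 3.49 RPKM in KLG4 (4.23 in log2). Selenom, of the endoplasmic reticulum, went from 0.332 and 0.357 RPKM to 4.06 and 4.41 RPKM (3.28). Selenon, mutated in a congenital muscle disease, went from 5.63 and 7.18 RPKM to 23.0 and 21.1 RPKM (1.78), and Selenos, a partner of Selenok at the endoplasmic reticulum, from 82.9 and 81.7 RPKM to 103 and 109 RPKM (0.37). Gpx4 was the gene that fell (-0.53, adjusted p = 0.036, limma). Its call was found in 9 of 15 other settings, and that of Selenos in 11 of 15.

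Of 8 listed genes of selenocysteine synthesis and insertion tested in tumor cells, the pathway of Sephs2 and Secisbp2, none rose and 1 fell (20.6% and 19.6% of all genes), with a median of -0.33 in log2. The gene that fell was Sars, the seryl-tRNA synthetase that charges the selenocysteine tRNA with serine, at 101 and 94.4 RPKM in KL against 53.5 and 50.3 RPKM in KLG4 (-0.91, adjusted p = 0.00267, limma). It serves all protein synthesis. Sephs1, the relative of Sephs2 without selenocysteine, was at 2.46 and 2.58 RPKM against 1.59 and 1.74 RPKM (-0.57, adjusted p = 0.0607).

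Of 4 genes of selenium uptake and recycling 2 were tested in tumor cells, and Lrp1, a broad scavenging receptor, rose from 0.538 and 0.847 RPKM to 6.65 and 6.43 RPKM (3.09 in log2). Lrp1 was also the gene of these lists that passed in TRMs, with 8.11 and 11.4 RPKM in KL and 36.9 and 36.0 RPKM in KLG4 (1.91, adjusted p = 0.0352, limma). That call held in 12 of 15 other settings, with TMM scaling among the settings that lost it.

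Glutathione peroxidases without selenocysteine rose in tumor cells in both genes tested, Gpx7 (0.593 and 0.590 to 6.11 and 2.73 RPKM) and Gpx8 (11.99 and 12.2 to 22.6 and 21.6 RPKM), both of the endoplasmic reticulum. Of 3 other methionine sulfoxide reductases tested beside Msrb1, Msrb3 fell (13.4 and 15.5 to 8.26 and 9.87 RPKM, -0.67 in log2) and none rose. Among 13 tested genes of peroxide and disulfide reduction without selenium, 2 rose (Sod2, 1.36, and Prdx6, 0.74) and 2 fell (Prdx3, -0.81, and Prdx2, -0.75), with a median of -0.05. Of 7 partners of Selenok and Selenos, Derl3 rose (0.204 and 0.198 to 1.15 and 1.32 RPKM) and Zdhhc6, the enzyme that works with Selenok in palmitoylation, fell (12.1 and 10.9 to 7.47 and 7.40 RPKM, -0.62).

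In TRMs and MDMs no other gene of these lists passed in limma on RPKM. In TRMs 8 genes of these lists, Lrp1 included, passed in at least 1 of the other settings. Among them Sel1l passed in 5 of 15, Txnrd1 in 4 and Gpx4 in 2, limma-voom included (adjusted p = 0.0181). In MDMs genes of these lists passed only without KL replicate 1, the only setting in which any gene of that population passed. The lists in TRMs had medians of 0.35 (9 other selenoproteins), 0.23 (7 genes of synthesis and insertion) and 0.48 (6 partners of Selenok), beside 0.38 over all genes tested. Txnrd3 (1.16) and Txnrd1 (0.82) were the furthest from 0 among other selenoproteins there, and Sel1l (1.47) among the partners, with adjusted p-values of 0.12, 0.0592 and 0.0539 in limma. Secisbp2l (0.67), the relative of Secisbp2, and Sars (0.34) led the synthesis list, Sod2 (0.52) and Prdx3 (0.51) the list of peroxide reduction (median -0.01 over 14 genes), and Syvn1 (0.95) followed Sel1l, while Msra was at -0.15. The corresponding medians in MDMs were -0.16, -0.25 and 0.21, beside 0.02 over all genes tested. Selenoh (-1.12) and Gpx4 (0.76) were furthest among other selenoproteins, with 44.9 and 71.3 RPKM in KL and 93.6 and 97.7 RPKM in KLG4 for Gpx4. The furthest in the other lists were Trnau1ap (-0.36) and Secisbp2l (0.32) for synthesis, Lrp8 (0.77), the Selenop receptor of brain and testis, and Lrp1 (0.50) for uptake, Msrb3 (-1.24) and Msrb2 (0.56) for methionine sulfoxide reduction, Prdx1 (-1.21) and Prdx4 (-1.02) for peroxide reduction, and Sel1l (0.79) and Derl2 (0.43) for the partners of Selenok. The high value of Prdx1, at 65.4 RPKM, was again that of KL replicate 2, against 29.4 RPKM in KL replicate 1 and 20.3 and 17.5 RPKM in KLG4.

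**Figure D5:**
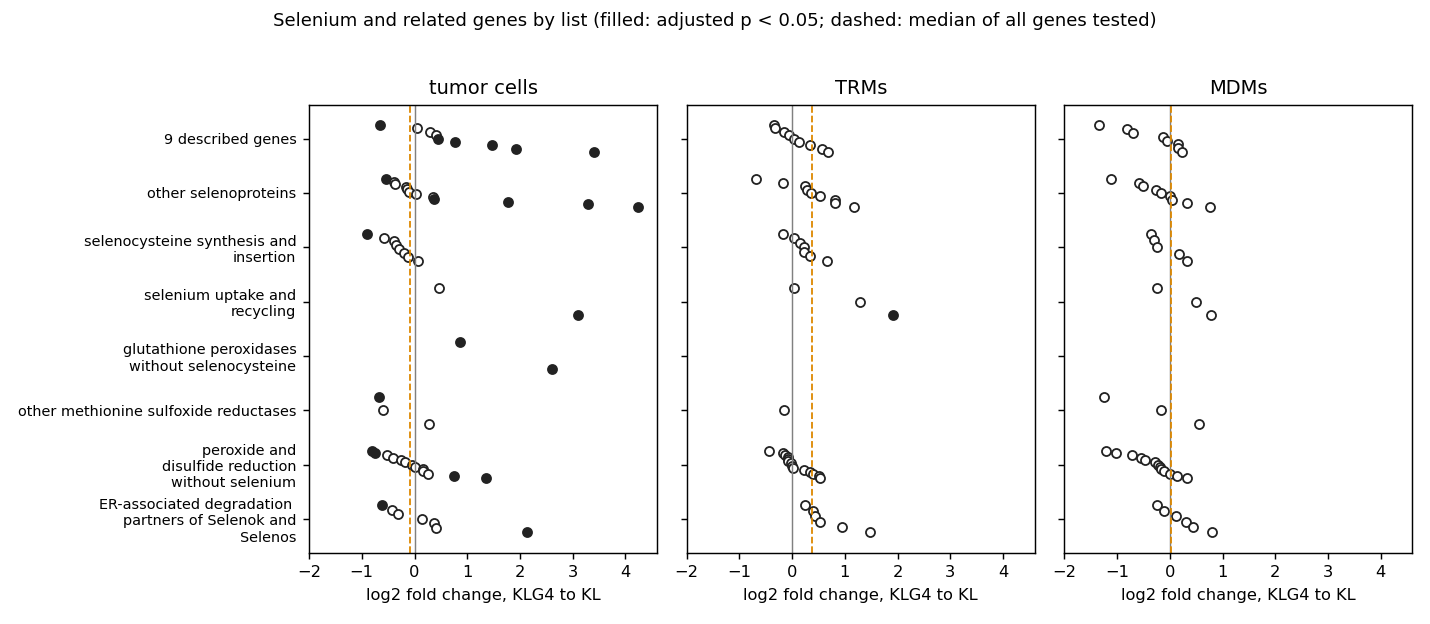
Log2 fold change of KLG4 to KL for each tested gene of 8 lists in the 3 populations, filled where the adjusted p is under 0.05, with the median of all genes tested as a dashed line. Tumor cells hold nearly all the filled points, on both sides of 0 for other selenoproteins and for peroxide reduction, and TRMs hold Lrp1 alone.

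Reads were counted without strand, so genes that overlap another gene have a limit of their own. Sephs2 shares 792 bases with Gm44729 and Selenop shares 439 bases with Ccdc152, each on the opposite strand, and reads over the shared bases cannot be assigned. In tumor cells Gm44729 moved like Sephs2, from 6.91 and 7.33 RPKM to 12.3 and 12.4 RPKM (log2 fold change 0.78, adjusted p = 0.00786, limma). Ccdc152 was not analysed here.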

How the data were processed

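Libraries were poly(A)-selected without strand information, and groups and replicate numbers come from sample titles. Per the methods, the authors trimmed reads with Trim Galore 0.6.4, aligned them with HISAT2 2.0.5 (Ensembl 94) and counted them per gene with featureCounts 2.0.0 at default settings. The authors deposited RPKM values, unscaled between libraries, in 1 table per population. Their own fold changes and p-values in those tables were not used. Here limma (3.58.1, under R 4.3.3) was fitted to each table separately, two-sided and with a mean-variance trend, on log2(RPKM + 0.1), which understates changes of low genes. Genes entered when 2 of 4 libraries or more reached 1 RPKM, with Benjamini-Hochberg adjustment over all genes tested. Whole reads, and from them depth, were recovered from RPKM and gene length (100% of values within 0.05 of a whole number below 2000 reads). The 9 genes, the gene lists and the marker lists were chosen with earlier results of these data known. Named genes were the 9, Gpx4, up to 6 genes per list past the threshold or else up to 2 with the largest change, the 3 nearest in pattern for the 3 most variable members, and overlapping genes, of which some, and an allele shared by all mice, are not reported here. Sephs1 was named after its values were seen. Coding sequences come from GENCODE M21 (GRCm38). The remaining 5 of the 17 samples were not used here.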

Additional observations from a re-analysis of the deposited data

Results flagged for a closer look

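Among 30 pairs of populations over the 9 genes and Gpx4, 8 were picked out because the KLG4 libraries were both higher than the KL libraries in one population and both lower in the other. The differences between populations were not tested. The share of all genes that meet this rule was not counted. Groups without overlap, in either direction, made up 74.7% of genes tested in tumor cells, 62.7% in TRMs and 44.5% in MDMs. For Gpx3 the log2 fold change was 3.41 in tumor cells, -0.34 in TRMs and -1.35 in MDMs, so that tumor cells exceeded TRMs by 3.75 and MDMs by 4.75. Selenop gave 2.64 for tumor cells minus MDMs and 1.04 for TRMs minus MDMs. Its TRM value of 0.34 was -0.04 relative to the median of all genes and turned to -0.054 with TMM scaling. The opposite direction in TRMs and MDMs therefore depends on the scaling. Msrb1 gave 1.62 and Selenok 0.46, both for tumor cells minus TRMs. For Gpx4, tumor cells minus MDMs gave -1.29 and TRMs minus MDMs -1.44. The MDM values of Gpx3 and Selenop rest on KL replicate 2, without which they were -0.40 and -0.29. That of Gpx4, 0.76, fell to 0.42 when KL replicate 1 was left out and rose to 1.09 when KL replicate 2 was.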

How the results depend on the processing

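Alternatives covered the pseudocount, the level filter, quantile and TMM scaling, reads outside mitochondrial genes, no trend, the replicate block, limma-voom on recovered reads and leaving out each library. Scaling that also leaves out 9 nuclear copies of mitochondrial genes was chosen after seeing the data. The number of the 9 genes that passed stayed within 1.5 times the reported one in 41 of 45 comparisons. Leaving out each library moved it to between 3 and 8 in tumor cells (3 without either KLG4 replicate), 0 and 1 in TRMs (1 without KL replicate 2) and 0 and 3 in MDMs (3 without KL replicate 1). With the replicate number as a block, 5 genes passed in tumor cells, where Gpx1 had an adjusted p of 0.0583, and 0 in TRMs and MDMs. Numbers do not pair samples by the labels (correlation of same-numbered deviations 0.0187, -0.0596 and 0.0545). For single genes, 383 values kept sign and side of the threshold, 12 gained a call, 16 lost one and 21 turned sign. Calls lost without a KLG4 library were Gpx1, Selenow, Sephs2 and Gpx4 in tumor cells, and TMM scaling ended that of Selenow (-0.57, adjusted p = 0.0762) and Gpx4 (-0.45). Without a trend 4 genes passed, with Gpx1 (adjusted p = 0.0617), Selenow (0.0529) and Gpx4 (0.0727) lost. Gpx4 was also lost outside mt- genes (0.0519) and with the copies (0.0715). Sign turned with quantile scaling for Txnrd2 in tumor cells (-0.35) and, in TRMs, for Gpx1 (-0.052) and Sephs2 (-0.37). TMM scaling turned Gpx1 (-0.27), Selenop (-0.054) and Sephs2 (-0.36) in TRMs. Scaling outside mt- genes turned Gpx1 (-0.021) and Sephs2 (-0.12) in TRMs, and with the copies Gpx1 (-0.27), Selenop (-0.053) and Sephs2 (-0.36). Leaving out each library gave -0.098 to 0.20 for Txnrd2 in tumor cells. In TRMs it gave -0.092 to 0.34 for Gpx1, -0.33 to 1.48 for Selenow and -0.28 to 0.33 for Sephs2, and in MDMs -0.47 to 0.20 for Gpx1, -1.66 to 0.048 for Selenow, -0.19 to 0.083 for Selenok and -0.024 to 0.34 for Sephs2. The cause was not tested. With a library left out, the lone library of its group was assumed to vary like the other group. Over all genes, calls went from 5543 of 13770 to 3284 of 7029 tested with a mean of at least 5 RPKM, and to 1990 without KLG4 replicate 1 and 1927 without KLG4 replicate 2 in tumor cells. In TRMs 198 calls became 12 without a trend, 30 with TMM, 31 outside mt- genes and copies, 60 with quantile scaling, 66 outside mt- genes, 113 without KL replicate 1, 120 without a filter, 122 with a pseudocount of 0.01, 470 with the block, 490 with a pseudocount of 1, 557 with a mean of at least 5 RPKM, 1921 with limma-voom and 2382 without KL replicate 2. In MDMs 0 calls became 2682 without KL replicate 1. Txnrd2 was counted from few reads, 37 to 214 a library.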
